A study of Mus musculus with 16 samples.

Results

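Expression of 9 transcriptional regulators that mark cortical layers was examined in RNA-sequencing counts of mouse cortex. The genes were taken by name from the count table, as Cux1, Cux2, Rorb, Bcl11b, Fezf2, Tbr1, Foxp2, Nr4a2 and Tle4. All 9 were found among the 47593 genes listed, and all 9 were among the 16553 genes with enough counts to be tested. The cortex came from 16 mice of the 5xFAD line, each aged 5 months, on a C57BL/6-SJL hybrid background. All 16 mice were heterozygous for mutant human transgenes of familial Alzheimer's disease driven by the neuronal Thy1 promoter, and no mice without the transgenes were part of the series. From 2 months of age they were fed a diet with microencapsulated rapamycin (14 ppm active compound) or a vehicle diet with the encapsulation carrier alone, with 4 mice of each sex on each diet. The paper's figure legend also gives 4 mice per group, but its text describes pooled cortical samples and a smaller number per diet. Each library was taken to be from its own mouse, which was not settled. The female rapamycin animals carry the numbers 1, 2, 4 and 5. By their labels 5 libraries formed batch 2, namely male vehicle 4, male rapamycin 4, female rapamycin 4 and 5 and female vehicle 4. The other 11 formed batch 1, and the labels do not say what the batches were.

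The excitatory projection neurons of the neocortex are arranged in layers, and each layer is recognised by the transcriptional regulators its neurons keep expressing after development. Cux1 and Cux2 are homeobox genes of upper layer neurons, and Rorb, a nuclear receptor, marks layer 4. Bcl11b (Ctip2) and Fezf2 specify the subcerebral projection neurons of layer 5. Tbr1, Foxp2 and the corepressor gene Tle4 are expressed by corticothalamic neurons of layer 6. Nr4a2, a nuclear receptor of the Nurr1 type, marks layer 6b and the claustrum, and in several tissues it is also induced by activity. Several of these genes have further sites of expression, since Bcl11b and Foxp2 are strongly expressed by projection neurons of the striatum.

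The libraries held 16393501 to 20593089 counted read pairs, a depth at which each of the 9 genes was counted in every library. The library labelled male rapamycin 4 held Xist, the transcript of the inactive X chromosome, at 512 CPM (counts scaled to equal library size) and 4 Y-linked genes at 0, against Xist of 0.0559 to 1.01 CPM in the other 7 male libraries, so its sex label did not match its expression. Male vehicle 4 held 8 choroid plexus markers at a summed 1972 CPM, against 14.7 to 327 CPM in the other 15 libraries. Both are in batch 2, and results were also computed without them. In bulk tissue, fewer cells of a type and less RNA per cell cannot be told apart.

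On GRCm38, Cux1 lies on chromosome 5 (136248135 to 136567490, minus strand) and Cux2 on the same chromosome (121856366 to 122050102, minus strand). Rorb (18930605 to 19111196) and Tle4 (14448072 to 14598051) are both on the minus strand of chromosome 19. Nr4a2 (57106830 to 57124003, minus strand) and Tbr1 (61802930 to 61814114, plus strand) are on chromosome 2. Bcl11b is on chromosome 12 (107910403 to 108003602, minus strand), Fezf2 on chromosome 14 (12341892 to 12345865, minus strand) and Foxp2 on chromosome 6 (14901349 to 15441977, plus strand). The counted exons of Cux1 shared 394 bases, 2.0% of its exon length, with the antisense gene Gm16599, while no other gene's exons overlapped those of the other 8.

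RefSeq promoter windows (GRCm38.p6) were matched for 8 of the 9 genes, and Foxp2 had no entry. The 250 bases before the start are shown for 3 genes whose window lies outside all counted exons. Tle4 is shown because its difference between diets held when any library was left out, Rorb because it covaried most closely with another of the 9, and Nr4a2 because it varied most between libraries. Each sequence runs 5′ to 3′ on the minus strand, and capitals mark GC boxes, GGGCGG on either strand.
Tle4, chr19:14598184-14598433: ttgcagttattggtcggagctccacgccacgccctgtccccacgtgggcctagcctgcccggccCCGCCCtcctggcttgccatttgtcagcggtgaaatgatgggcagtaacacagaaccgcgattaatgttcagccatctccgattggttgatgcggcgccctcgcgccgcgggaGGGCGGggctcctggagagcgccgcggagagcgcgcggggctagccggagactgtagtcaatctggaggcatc
Rorb, chr19:19111197-19111446: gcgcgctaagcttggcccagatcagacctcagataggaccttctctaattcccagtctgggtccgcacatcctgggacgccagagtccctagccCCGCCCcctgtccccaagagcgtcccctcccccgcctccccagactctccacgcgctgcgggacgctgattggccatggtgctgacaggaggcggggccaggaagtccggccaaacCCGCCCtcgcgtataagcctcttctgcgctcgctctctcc
Nr4a2, chr2:57124004-57124253: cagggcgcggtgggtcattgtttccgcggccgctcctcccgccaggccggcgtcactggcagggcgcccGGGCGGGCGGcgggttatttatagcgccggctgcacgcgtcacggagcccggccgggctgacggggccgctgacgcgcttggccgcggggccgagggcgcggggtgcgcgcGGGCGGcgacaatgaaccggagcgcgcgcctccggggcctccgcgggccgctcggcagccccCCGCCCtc

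GC boxes were found 2 times in the Tle4 window, 2 times in that of Rorb and 4 times in that of Nr4a2, with overlapping matches counted separately. Of the 8 windows 4 lay outside all counted exons, while those of Cux1 and Tbr1 lay wholly within exons. A GC box was held by 5 of the 8, against 32.7% of all 32851 promoter windows. CCAAT was in 2 of the 8 (33.8% of all), TATAAA in 1 (12.4%), CANNTG in 3 (66.2%), TAATTA in 1 (4.84%) and TGACGTCA in 0 (1.55%), each searched on both strands. The GC content of the 8 windows ranged from 44.8% to 80.0% with a median of 64.0%, and the median over all windows was 52.4%. These are matches of letters and do not show binding.

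Per kilobase of exon, Tbr1 was the highest of the 9, at 29.4 ± 4.14 CPM per kb (mean ± SD, n = 16). Nr4a2 followed at 20.7 ± 12.2, Fezf2 at 19.5 ± 3.69, Tle4 at 13.3 ± 2.95, Cux2 at 12.2 ± 2.40, Bcl11b at 8.17 ± 2.11, Cux1 at 4.82 ± 0.577 and Rorb at 3.61 ± 1.00 CPM per kb. Foxp2 was lowest at 0.742 ± 0.251 CPM per kb, below Rorb in 16 of 16 libraries. Of the 8 neighbouring pairs in this order, compared within libraries by a two-sided exact sign-flip permutation test with Benjamini-Hochberg adjustment over the 8, 6 differed (adjusted p = 0.00012 to 0.0186). Nr4a2 and Fezf2 did not differ beyond their spread (Nr4a2 higher in 8 of 16 libraries, adjusted p = 0.580), nor did Tle4 and Cux2 (Tle4 higher in 6 of 16, adjusted p = 0.460).

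The 9 genes also differed in how much they varied between mice. Across all 16 libraries Cux1 had a coefficient of variation of 12% and Tbr1 one of 14.1%, below the median of 21.5% over all tested genes. Nr4a2 had one of 58.6%, higher than in 92.2% of tested genes, with a highest library 10.9 times the lowest. Foxp2 (33.8%), Rorb (27.7%), Bcl11b (25.8%), Tle4 (22.3%), Cux2 (19.6%) and Fezf2 (19%) lay between.

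**Figure D1:**
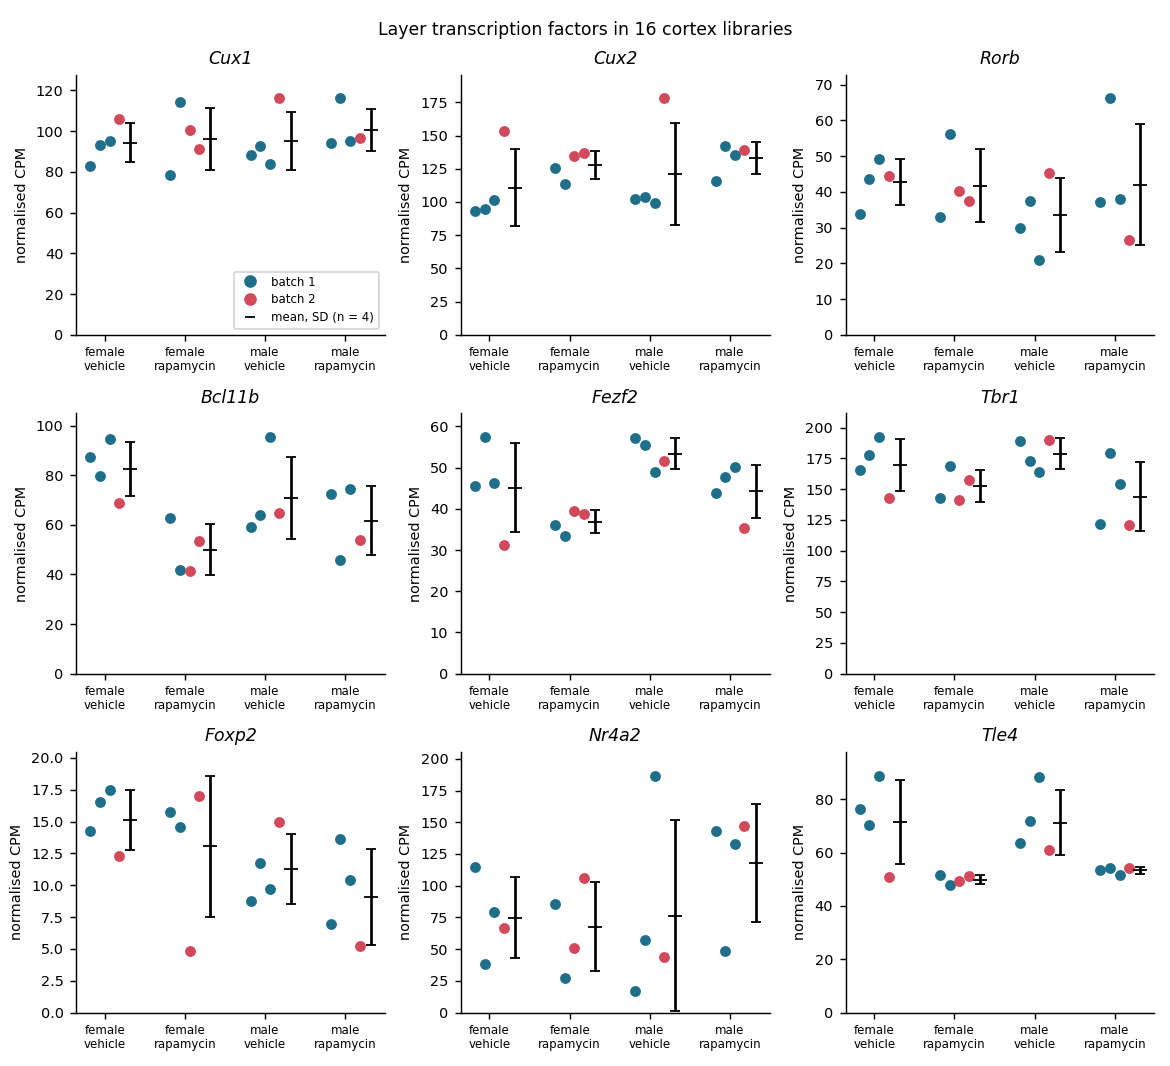
TMM-normalised CPM (vertical axes, starting at 0) of the 9 layer genes in the 16 libraries by group (horizontal axes), each point a library coloured by batch, with the mean and SD of each group (n = 4) in black. The rapamycin libraries lie close together for Tle4, at 47.7 to 54.2 CPM, and Nr4a2 is spread from 17.2 to 186 CPM.

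The design asks whether the rapamycin diet changed cortical expression, and among the layer genes 2 of 9 fell and 0 rose. Both belong to the deep layers, Tle4 of layer 6 and Bcl11b of layer 5. In both sexes together, 13.3% of all 16553 tested genes passed the same threshold (edgeR quasi-likelihood test with sex, batch and diet as terms, adjusted p under 0.05), 6.86% lower and 6.46% higher. Neither of the 2 reached a 1.5-fold change, a size that 2.26% of genes reached with an adjusted p under 0.05.

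Tle4 was at 76.4, 70.2, 88.7 and 50.7 CPM in female vehicle mice 1 to 4 and at 51.5, 47.7, 49.2 and 51.1 CPM in female rapamycin mice 1, 2, 4 and 5. In males it was at 63.7, 71.8, 88.4 and 61.1 CPM with vehicle and at 53.3, 54.2, 51.5 and 54.2 CPM with rapamycin. Female vehicle 4 was the single vehicle library within the rapamycin range, and in males the diets did not overlap, as was so in the lower direction for 3.3% of tested genes. The mean was 71.4 ± 13.1 CPM with vehicle and 51.6 ± 2.31 CPM with rapamycin (SD, n = 8 each). Tle4 fell by 0.43 on the log2 scale (SE 0.09, edgeR adjusted p = 0.0133). Leaving out any single library of the 16 kept it past the threshold, with a highest adjusted p of 0.0376. Within batch 1 the log2 change was -0.57 (edgeR adjusted p = 0.0344), and the 6 vehicle and 5 rapamycin libraries did not overlap, as was so in the lower direction for 2.37% of tested genes. Within batch 2, with 2 vehicle and 3 rapamycin libraries, its log2 difference was -0.08 (edgeR adjusted p = 0.908).

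Bcl11b was at 87.4, 79.7, 94.5 and 69.0 CPM in female vehicle mice and at 63.0, 41.9, 41.5 and 53.5 CPM in female rapamycin mice, so the female diets did not overlap (in the lower direction, 3.65% of tested genes did not). In males it was at 59.0, 63.9, 95.4 and 64.8 CPM with vehicle and at 72.3, 45.9, 74.3 and 54.1 CPM with rapamycin, which overlapped. Both sexes together gave a fall by 0.43 on the log2 scale (SE 0.13, edgeR adjusted p = 0.0424). This call depended on single libraries, since it held in 4 of the 16 fits with 1 library left out (male vehicle 1 or 2, male rapamycin 1 or 3) and reached an adjusted p of 0.0968 without female rapamycin 2. Without male vehicle 4 and male rapamycin 4 the adjusted p was 0.0759, without a batch term 0.105, and within batch 1 it was 0.135. Within batch 2 the log2 difference was -0.41 (edgeR adjusted p = 0.667).

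The other layer 5 and 6 genes did not pass in this comparison. Fezf2 had a mean of 49.2 ± 8.66 CPM with vehicle and 40.5 ± 6.09 CPM with rapamycin, a log2 difference of -0.25 (SE 0.10, edgeR adjusted p = 0.0897), which passed without female vehicle 4 (-0.32, adjusted p = 0.0344). Tbr1 had 174 ± 16.8 and 148 ± 21 CPM (-0.22, SE 0.09, edgeR adjusted p = 0.104). Foxp2 had 13.2 ± 3.13 and 11.1 ± 4.87 CPM (-0.26, SE 0.22, edgeR adjusted p = 0.457). Bcl11b, Fezf2, Tbr1, Foxp2 and Tle4 thus all had negative fitted differences. At an unadjusted p under 0.05, 4 of the 9 genes were lower and 0 higher, against 30.4% of all genes in either direction.

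The upper layer genes had small positive fitted differences that did not pass. Cux1 had 94.8 ± 11.3 CPM with vehicle and 98.4 ± 12.3 CPM with rapamycin (log2 difference 0.04, SE 0.09, edgeR adjusted p = 0.765). Its approximate 95% interval of -0.12 to 0.21 lay within the 0.58 log2 units of a 1.5-fold change. Intervals were taken from the SE with the normal distribution, which makes them somewhat narrower than the edgeR test would. Rorb had 38.1 ± 9.40 and 41.9 ± 12.9 CPM (0.15, SE 0.18, edgeR adjusted p = 0.623), and without male rapamycin 2 its difference was -0.01. Nr4a2 had 75.6 ± 53.5 and 92.8 ± 46.7 CPM (0.25, SE 0.42, edgeR adjusted p = 0.729), with an approximate 95% interval of -0.57 to 1.07 on the log2 scale.

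Cux2 differed between diets within batch 1 but not over all libraries. With vehicle it was at 92.8, 95.0, 102 and 154 CPM in females and at 102, 104, 99.1 and 178 CPM in males, the last of each being the batch 2 library. With rapamycin it was at 126, 113, 135 and 137 CPM in females and at 116, 142, 135 and 139 CPM in males. Every batch 1 rapamycin library thus exceeded every batch 1 vehicle library, which was so in the higher direction for 2.22% of tested genes, and the 2 batch 2 vehicle libraries exceeded all rapamycin libraries. The log2 difference was 0.34 within batch 1 (edgeR adjusted p = 0.0344) and 0.15 over all libraries (SE 0.09, edgeR adjusted p = 0.241). Within the 5 libraries of batch 2 it was -0.25 (edgeR adjusted p = 0.716), where 0 of the 9 genes and 3 of all genes passed. There 1 of the 9, Rorb at -0.43, had an unadjusted p under 0.05, as had 1301 of 17665 tested genes. The difference in response between the batches was not tested.

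Cux2 was also the single layer gene that differed between batches, being higher in batch 2 by 0.43 on the log2 scale (SE 0.09, edgeR adjusted p = 0.00212), at 149 ± 18.1 CPM (n = 5) against 112 ± 16.6 CPM (n = 11). It passed in each of 16 fits with 1 library left out, with a log2 difference of 0.31 to 0.49. Between batches 35.5% of all tested genes passed, so 1 of 9 is a smaller share than in the background. The other 8 layer genes had adjusted p values of 0.142 or more for batch.

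The sexes were compared as labelled. Between females and males 0 of 9 layer genes passed (edgeR), 0 with DESeq2, and 2 had an unadjusted p under 0.05, Foxp2 with a log2 difference of 0.49 (SE 0.22) and Fezf2 with -0.23 (SE 0.10). Of all genes 0.0302% passed and 5.99% had an unadjusted p under 0.05. Of the diet effect in females 0 of 9 passed in edgeR, where 0.0121% of all genes did, and 2 passed in DESeq2, where 9.08% of all genes did. Bcl11b had a log2 difference of -0.67 (SE 0.18, edgeR adjusted p = 0.0709) and Tle4 of -0.46 (SE 0.14, edgeR adjusted p = 0.0811) in females, both with an unadjusted p under 0.05, as had 23.1% of all genes. In males 0 of 9 passed in edgeR and 0 in DESeq2, and 2 had an unadjusted p under 0.05, Tle4 (-0.41, SE 0.13) and Tbr1 (-0.32, SE 0.12), as had 12% of all genes. The interaction of sex and diet had 0 of 9 genes past the threshold in edgeR, 0 in DESeq2, and 0 with an unadjusted p under 0.05, against 2.17% of all genes. For Bcl11b the female minus male difference in log2 change was -0.47 (SE 0.25, edgeR adjusted p = 0.999). The library labelled male rapamycin 4 is among the males of all these comparisons.

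**Figure D2:**
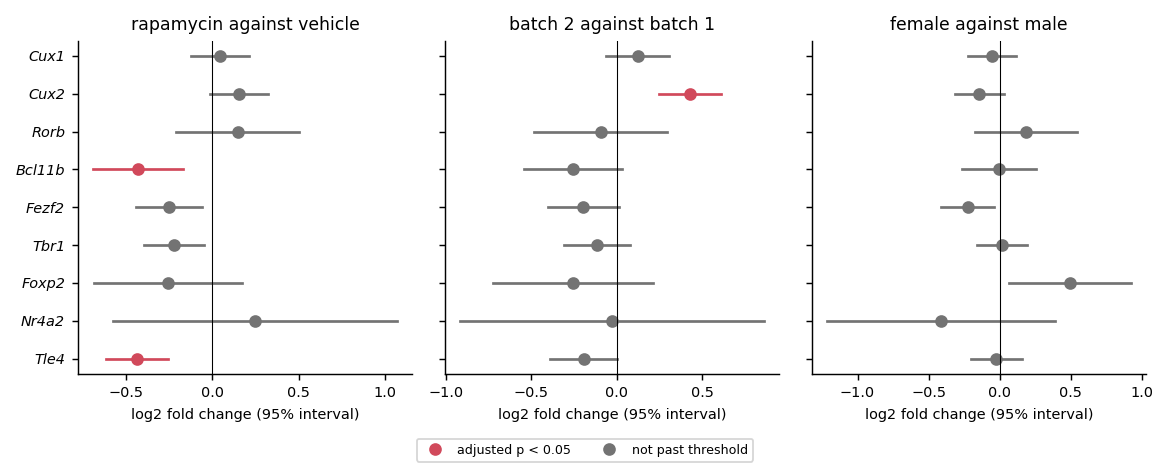
Fitted log2 fold changes (horizontal axes) of the 9 layer genes (vertical axis) with approximate 95% intervals for rapamycin against vehicle, batch 2 against batch 1 and female against male, from the edgeR fit over 16 libraries. The intervals use the normal distribution and are somewhat narrower than the test would give. Red marks an adjusted p under 0.05, which only Tle4 and Bcl11b reached for diet, both near -0.43, and only Cux2 for batch, at 0.43.

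Library properties moved with diet as well. The exon length slope of each library, the regression of the genes' log2 CPM (each centred on its mean over libraries) on log2 exon length, was 0.000395 to 0.10 with vehicle and -0.127 to 0.064 with rapamycin, and mitochondrially encoded genes took 2.64% to 5.47% and 3.75% to 6.99% of the counts. With batch removed, relations of the length slope did not pass with Bcl11b (Pearson r = 0.71, Spearman rho = 0.69, permutation adjusted p = 0.0968, within batch 1 r = 0.81) or Tle4 (r = 0.68, rho = 0.72, permutation adjusted p = 0.0968, within batch 1 r = 0.77). Nor did that of the mitochondrial share with Fezf2 (r = -0.69, rho = -0.68, permutation adjusted p = 0.0968, within batch 1 r = -0.75). With the length slope as a further term the log2 difference between diets was -0.13 for Bcl11b (edgeR adjusted p = 0.969) and -0.36 for Tle4 (edgeR adjusted p = 0.796). With the mitochondrial share it was -0.23 (edgeR adjusted p = 0.742) and -0.44 (edgeR adjusted p = 0.567). Under either term 0 of 16553 genes passed in edgeR. Without adjustment 965 genes had p under 0.05 with the length slope, Tle4, Tbr1 and Foxp2 among them, and 1318 with the mitochondrial share, Tle4 and Tbr1 among them.

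Other markers of the projection neurons were set beside the 9. Among 26 further transcriptional regulators of projection neurons, rapamycin mice had 6 lower and 1 higher (Lhx2). The lower ones included Etv1, an ETS factor of layer 5 (102 ± 21.1 CPM with vehicle and 57.6 ± 16.6 CPM with rapamycin, log2 change -0.81, SE 0.16, edgeR adjusted p = 0.0119). They also included Zfpm2 (-0.68, SE 0.18, edgeR adjusted p = 0.0242) and Tshz3 (-0.43, SE 0.12, edgeR adjusted p = 0.0319). The number lower ranged from 1, without female rapamycin 1 or male vehicle 4, to 6, and was 2 to 4 without female vehicle 2, 3 or 4, female rapamycin 2 or 5, male vehicle 2, or male rapamycin 2 or 4. The higher call of Lhx2 was lost in 11 of the 16 fits with 1 library left out, being kept without female vehicle 1 or 4, female rapamycin 4, male vehicle 3 or male rapamycin 4. The median log2 difference of the 26 was -0.05, near the 0.02 over all genes.

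Of 12 layer 5 markers 3 fell with rapamycin in edgeR and 0 rose, with a median log2 difference of -0.24. In DESeq2 4 were lower and 1 higher, and at an unadjusted p under 0.05 in edgeR 5 were lower and 2 higher. With the length slope as a term their median was -0.11. Npr3, a natriuretic peptide clearance receptor, was at 16.3 ± 3.72 CPM with vehicle and 9.87 ± 2.57 CPM with rapamycin (-0.73, SE 0.16, edgeR adjusted p = 0.0140). Parm1 fell as well (-0.60, SE 0.16, edgeR adjusted p = 0.0235). The edgeR count of layer 5 markers that fell was 1 without female rapamycin 1, female rapamycin 2 or male rapamycin 2. Of 10 upper layer and layer 4 markers 1 fell, the potassium channel gene Kcnh5 (19.6 ± 12.6 and 7.41 ± 5.41 CPM, -1.51, SE 0.33, edgeR adjusted p = 0.0140). Of 12 layer 6 and 6b markers 0 passed in edgeR, 0 in DESeq2 and 1 had an unadjusted p under 0.05, and their median log2 difference was 0.21, opposite in sign to that of Tle4, but -0.08 with the length slope as a term. Of 6 claustrum and endopiriform markers 1 rose, Ntng2, a membrane-anchored netrin (29.1 ± 5.96 and 41.7 ± 10.6 CPM, 0.51, SE 0.15, edgeR adjusted p = 0.0378). Its call was lost without female vehicle 2 or 3, female rapamycin 1 or 5, or any of 6 male libraries (all but male vehicle 3 and male rapamycin 2). Of 8 choroid plexus markers 3 were lower with rapamycin, and 0 without male vehicle 4, female vehicle 2, female rapamycin 1 or 5, or male rapamycin 2 or 4.

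Markers of other cells were set beside the diet comparison as well. Of 8 astrocyte markers 1 was higher with rapamycin in edgeR (S100b, log2 difference 0.33, SE 0.07, edgeR adjusted p = 0.0152) and 4 in DESeq2, 5 were higher at an unadjusted p under 0.05, and the median log2 difference was 0.25. Their summed level was 3965 to 6010 CPM with vehicle and 3401 to 6421 CPM with rapamycin. Of 7 markers common to glutamatergic neurons 1 was higher, Cck (0.45, SE 0.11, edgeR adjusted p = 0.0191), a call that was lost without female rapamycin 1, and they summed to 5667 to 7632 CPM with vehicle and 5281 to 8584 CPM with rapamycin. The part of these cells in the differences of the layer genes was not tested.

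Between batches, where 35.5% of all genes passed, layer markers passed in both directions. Of 12 layer 6 and 6b markers Col5a1, a fibrillar collagen gene, was higher in batch 2 (17.7 ± 5.40 CPM in batch 1 and 68.7 ± 10.5 CPM in batch 2, log2 1.94, SE 0.18, edgeR adjusted p = 2.1e-06) and Hs3st4 lower (-0.49, SE 0.11, edgeR adjusted p = 0.00267). Of 10 upper layer and layer 4 markers, Whrn (0.63, SE 0.12, edgeR adjusted p = 0.000815), Otof (1.29, SE 0.32, edgeR adjusted p = 0.00532) and Kcnh5 were higher and Calb1 lower. Of the 26 further regulators 4 were lower, with Lmo3 at -0.61 (SE 0.14, edgeR adjusted p = 0.00306) and Id2 at -0.55 (SE 0.15, edgeR adjusted p = 0.00816), and 0 higher. Of 9 thalamus markers 4 were higher and 0 lower in batch 2, and their part in the higher Cux2 was not tested.

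How the 9 genes varied together was measured by the correlation of log2 CPM over the 16 libraries after subtracting each gene's mean within each batch. Of the 36 pairs, 20 had a positive and 16 a negative Pearson r, from -0.58 to 0.80. The two-sided permutation test (100000 resamples within batches, Benjamini-Hochberg adjustment over 36 pairs) passed 1 pair, Cux1 with Rorb, and 7 pairs had an unadjusted p under 0.05. The 3 pairs among the upper layer genes Cux1, Cux2 and Rorb were all positive, with r = 0.45 to 0.80. The 10 pairs among Bcl11b, Fezf2, Tbr1, Foxp2 and Tle4 ranged from -0.01 to 0.72 with a median of 0.36. The 15 pairs of an upper with a deep layer gene ranged from -0.57 to 0.45 with a median of -0.10, and within batch 1 with a median of -0.33. Diet was not removed from these r. Within vehicle libraries such pairs ranged from -0.39 (Cux2 with Bcl11b) to 0.81 (Rorb with Foxp2). Within rapamycin libraries they ranged from -0.82 (Rorb with Bcl11b) to 0.81 (Rorb with Tbr1), and most were positive within each diet. The 8 pairs of Nr4a2 had a median of -0.19, 2 being positive. One of these was Bcl11b with Nr4a2, at r = 0.52 (rho = 0.49, permutation adjusted p = 0.205). This pair had r = 0.82 within vehicle libraries and 0.97 within rapamycin libraries, and r = 0.88 after removing sex, diet and batch (permutation adjusted p = 0.00108), but 0.28 in the replicate block (permutation adjusted p = 0.569).

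**Figure D3:**
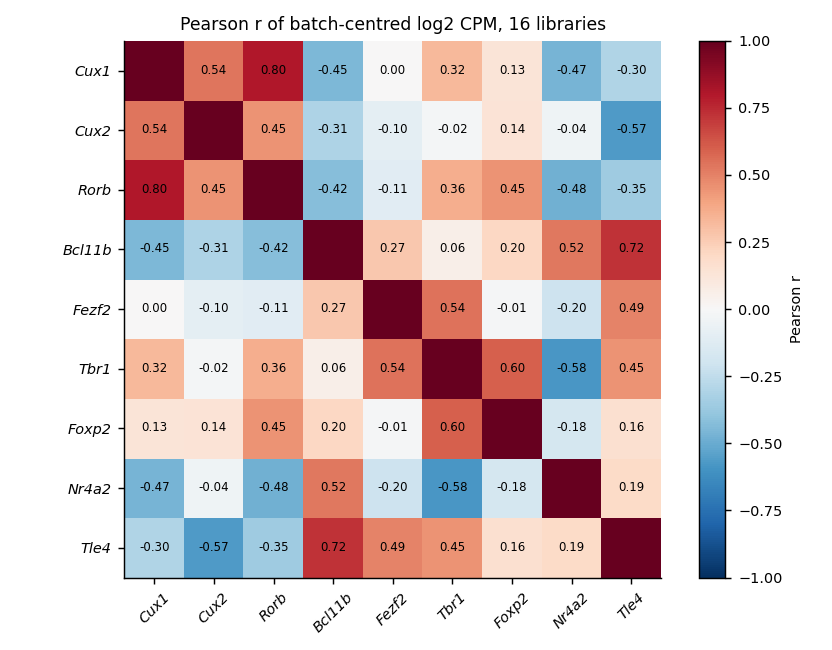
Pearson r between the 9 layer genes (both axes) over 16 libraries, from log2 CPM with each batch's mean subtracted, red for positive and blue for negative values. Cux1 with Rorb has the highest r, 0.80, and Tbr1 with Nr4a2 the lowest, -0.58.

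Cux1 and Rorb had r = 0.80 (permutation p = 0.00055, adjusted p = 0.0198) and rho = 0.81 (permutation p = 0.00026). Fewer than 0.1% of tested genes had a higher r with either of the 2, the share being 0.0302% for Cux1 and 0.0906% for Rorb. Within batch 1 (n = 11) r was 0.84 (permutation adjusted p = 0.0547), within vehicle libraries (n = 8) 0.73 and within rapamycin libraries (n = 8) 0.82. Female rapamycin 2 (Cux1 114 CPM, Rorb 56.3 CPM) and male rapamycin 2 (116 and 66.2 CPM) lay at the upper end of both genes, and r was 0.64 without both. Leaving out female rapamycin 2 (permutation adjusted p = 0.116) or male rapamycin 2 (permutation adjusted p = 0.0997) ended the call. Relative to 7 markers common to glutamatergic neurons r was 0.55 (permutation adjusted p = 0.187), and 4 other pairs, all of deep layer genes, passed there.

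Bcl11b and Tle4, the pair that was lower with rapamycin, had r = 0.72 (permutation p = 0.00389, adjusted p = 0.0700) and rho = 0.69 (permutation p = 0.00902). They had r = 0.76 within batch 1, 0.62 without female rapamycin 2 and male rapamycin 2, 0.77 within vehicle libraries and 0.48 within rapamycin libraries. After removing sex, diet and batch, r was 0.46 (permutation adjusted p = 0.163). The pair passed without centring within batch (0.76, permutation adjusted p = 0.0194), on the CPM scale (0.77, permutation adjusted p = 0.0382) and relative to the glutamatergic markers (0.81, permutation adjusted p = 0.0173). Cux2 and Tle4 had the most negative r of an upper with a deep layer gene, -0.57 (rho = -0.60, permutation adjusted p = 0.205) and -0.76 within batch 1, but r was 0.27 within vehicle and 0.55 within rapamycin libraries. Tbr1 and Foxp2 of layer 6 had r = 0.60 (rho = 0.56, permutation adjusted p = 0.200, within batch 1 r = 0.49), and Fezf2 and Tbr1 had r = 0.54 (rho = 0.57, permutation adjusted p = 0.205, within batch 1 r = 0.41).

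**Figure D4:**
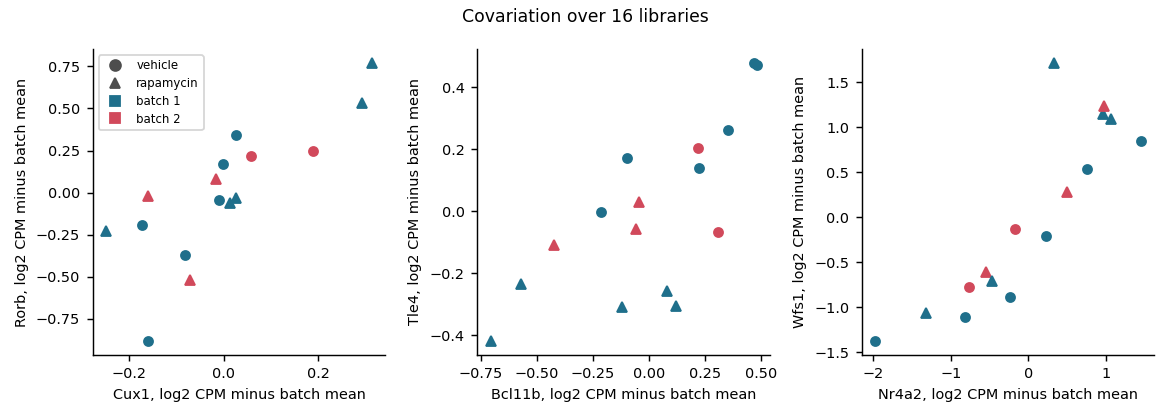
Log2 CPM minus the batch mean of Cux1 and Rorb, Bcl11b and Tle4, and Nr4a2 and Wfs1 (axes of each panel), with 1 point per library, circles for vehicle, triangles for rapamycin and colours for batch. Cux1 and Rorb (r = 0.80) and Nr4a2 and Wfs1 (r = 0.87) rise together across both diets, and for Bcl11b and Tle4 (r = 0.72) the vehicle libraries lie mostly above the rapamycin libraries.

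The balance of the layers was summarised in each library as the mean log2 CPM of Cux1, Cux2 and Rorb minus that of Bcl11b, Fezf2, Tbr1, Foxp2 and Tle4, a grouping made with the values known and therefore not tested. In batch 1 it ranged from -0.05 to 0.37 in 6 vehicle libraries (median 0.23) and from 0.51 to 1.06 in 5 rapamycin libraries (median 0.79), without overlap. In batch 2 it was 0.79 and 0.98 in the 2 vehicle libraries and 0.66 to 1.20 in the 3 rapamycin libraries, which overlapped. The difference between diets was therefore seen in batch 1 libraries and not in the few of batch 2.

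Marker lists were used to place each gene's variation, as 162 relations of the 9 genes with 15 lists (mean of scaled, batch-centred log2 CPM) and 3 library properties, adjusted together. Batch was removed from these relations but diet was not. After adjustment 4 passed. Bcl11b followed the 12 layer 5 markers (r = 0.94, rho = 0.86, permutation p = 1e-05, the smallest that the resamples can give, adjusted p = 0.00162), with r = 0.98 within batch 1 and 0.88 without female rapamycin 2 and male rapamycin 2. Taken singly, 10 of these 12 markers had a positive r with Bcl11b (median 0.50, highest 0.70) and 0 passed, and 3 of the list were lower with rapamycin. Tle4 followed the same list (r = 0.76, rho = 0.68, permutation adjusted p = 0.0417, within batch 1 0.77). Of its own layer 6 and 6b list the r of Tle4 was -0.04. Tbr1 followed the 26 further regulators (r = 0.81, rho = 0.87, permutation adjusted p = 0.0373, within batch 1 0.75) and ran opposite to 8 astrocyte markers (r = -0.81, rho = -0.76, permutation adjusted p = 0.0417, within batch 1 -0.78, and -0.59 without male vehicle 4 and male rapamycin 1).

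Other relations did not pass. Rorb with the upper layer and layer 4 list had r = 0.64 (rho = 0.50, permutation adjusted p = 0.102, within batch 1 r = 0.55), while Cux2 had 0.08 with that list. Foxp2 had r = 0.70 with striatal projection neuron markers (rho = 0.74, permutation adjusted p = 0.0978, within batch 1 r = 0.49) and 0.48 with layer 6 and 6b markers. Cux2 had r = -0.69 with 8 microglia markers (rho = -0.53, permutation adjusted p = 0.0968, within batch 1 r = -0.79), which was -0.34 without male rapamycin 2 and 3. Bcl11b had r = -0.67 with 8 oligodendrocyte markers (rho = -0.54, permutation adjusted p = 0.0978, within batch 1 r = -0.62), and each of the 8 had a negative r with it.

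**Figure D5:**
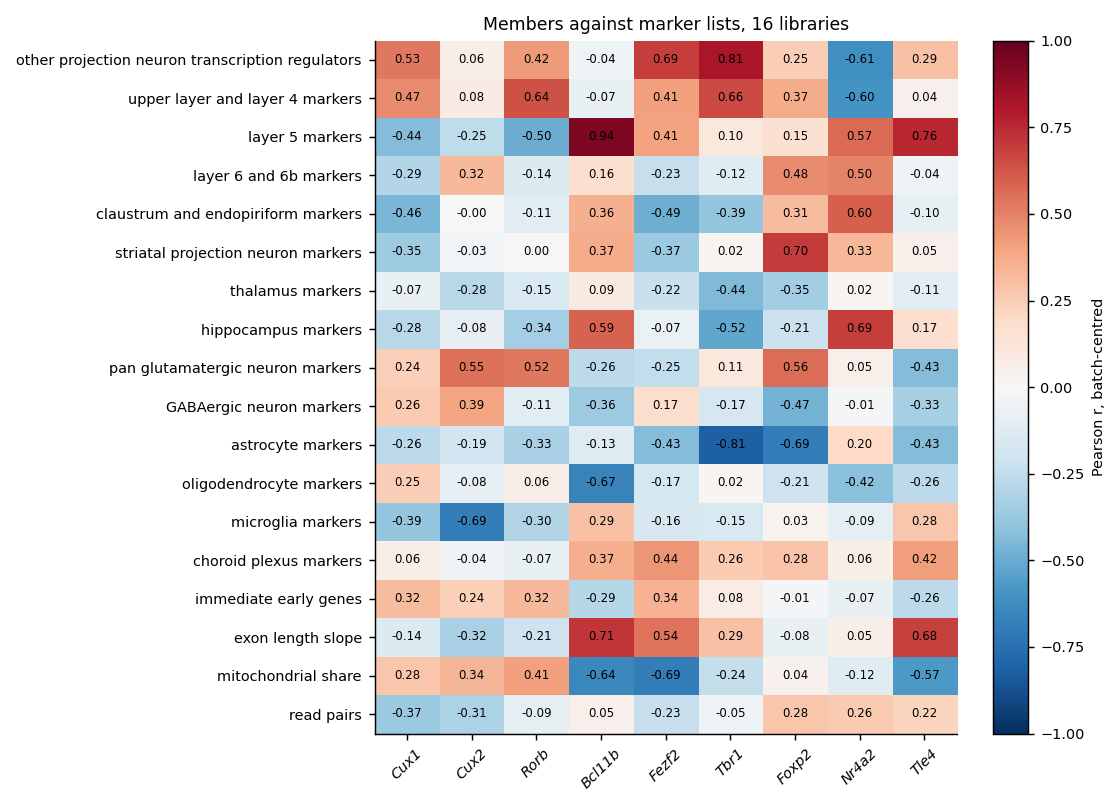
Pearson r of the 9 layer genes (horizontal axis) with the mean scaled level of 15 marker lists and with 3 library properties (vertical axis) over 16 libraries, batch means subtracted. The highest value is Bcl11b with layer 5 markers, 0.94, and the lowest is Tbr1 with astrocyte markers, -0.81.

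Nr4a2 covaried with single markers from several lists. It was at 115, 38.5, 79.3 and 66.6 CPM in female vehicle mice, at 85.7, 27.2, 51.2 and 106 CPM in female rapamycin mice, at 17.2, 57.4, 186 and 44.1 CPM in male vehicle mice and at 143, 48.9, 133 and 147 CPM in male rapamycin mice. High and low libraries occurred in every group and in both batches. Single marker genes were compared with it as part of 1395 relations of the 9 genes with all list genes, adjusted together. In all, 37 relations passed, 21 positive and 16 negative, of which 9 were with Nr4a2 and 9 with Tbr1. Wfs1 and Rspo1 passed with both of these genes, with opposite signs. Of the 6 claustrum and endopiriform markers 6 had a positive r with Nr4a2, with a median of 0.55, and 1 passed (Nr2f2). Of the 10 hippocampal markers 5 had a positive r with Nr4a2, with a median of 0.08 and a lowest value of -0.49, and 3 passed. These were Mpped1 (r = 0.89, rho = 0.91, permutation adjusted p = 0.0192), Wfs1 (r = 0.87, rho = 0.89, permutation adjusted p = 0.0192) and Fibcd1 (r = 0.86, rho = 0.86, permutation adjusted p = 0.0192). Nr4a2 also rose with Crym, a thyroid hormone binding protein gene on the layer 5 list (r = 0.86, rho = 0.89, permutation adjusted p = 0.0140), Ctgf of layer 6b (r = 0.85, rho = 0.80, permutation adjusted p = 0.0192) and Nr2f2 of the claustrum and endopiriform list (r = 0.83, rho = 0.77, permutation adjusted p = 0.0319). Mpped1, Wfs1, Fibcd1, Crym, Ctgf and Nr2f2 stayed at r = 0.85 to 0.93 within batch 1, and at 0.74 to 0.94 without the 2 libraries farthest from each gene's median. The upper layer markers Rspo1 (r = -0.84, rho = -0.87, permutation adjusted p = 0.0192, within batch 1 r = -0.82) and Stard8 (r = -0.73, rho = -0.79, permutation adjusted p = 0.0498) and the POU factor gene Pou3f2 (r = -0.75, rho = -0.86, permutation adjusted p = 0.0469) ran opposite. Their lists were mixed in sign. Of the 10 upper layer and layer 4 markers 4 had a positive r with Nr4a2 (median -0.36), as had 8 of the 26 further regulators (median -0.31). The 12 immediate early genes had r of -0.37 to 0.19 with Nr4a2, and their list -0.07.

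Wfs1 was at 62.2 to 529 CPM over the libraries and Mpped1 at 210 to 395 CPM, and Wfs1 is also expressed in upper cortical layers and the amygdala. Hippocampal markers as a list summed to 465 to 988 CPM, and their list had r = 0.69 with Nr4a2 (rho = 0.54, permutation adjusted p = 0.0978), 0.80 within batch 1 and 0.48 without male vehicle 1 and male rapamycin 1. The part of the dissected region in the spread of Nr4a2 was not tested.

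Single markers also followed or ran opposite to other layer genes. Tbr1 rose with Mef2c (r = 0.83, rho = 0.84, permutation adjusted p = 0.0349), with Lamp5 (r = 0.77, rho = 0.74, permutation adjusted p = 0.0319) and with Rspo1 (r = 0.73, rho = 0.69, permutation adjusted p = 0.0469). It ran opposite to 5 markers, the astrocyte genes Slc1a3 (r = -0.81) and Fgfr3 (-0.75), Lef1 of the thalamus list (-0.79), Lhx2 (-0.73) and Wfs1 (-0.72), with permutation adjusted p values of 0.0319 to 0.0498. Rorb rose with Foxp1 (r = 0.79, rho = 0.85, permutation adjusted p = 0.0192) and with Garnl3 (r = 0.71, rho = 0.81, permutation adjusted p = 0.0498), and ran opposite to Neurod6, a neuronal helix-loop-helix factor gene (r = -0.79, rho = -0.67, permutation adjusted p = 0.0319). Neurod6 is on the list of 7 markers common to glutamatergic neurons, of which the other 6 had a positive r with Rorb (median of the list 0.28). Fezf2 rose with Tshz3 (r = 0.80, rho = 0.80, permutation adjusted p = 0.0349) and ran opposite to the astrocyte marker S100b (r = -0.81, rho = -0.79, permutation adjusted p = 0.0469) and to Dlx6, a homeobox gene of GABAergic neurons (r = -0.76, rho = -0.76, permutation adjusted p = 0.0425). Of the 10 GABAergic markers, however, 7 had a positive r with Fezf2, with a median of 0.11. Of the 8 astrocyte markers 2 had a positive r with Fezf2, with a median of -0.15.

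Foxp2 rose with Syt6, a synaptotagmin gene of layer 6 (r = 0.78, rho = 0.78, permutation adjusted p = 0.0469), and with Tac1, the substance P precursor gene (r = 0.83, rho = 0.85, permutation adjusted p = 0.0425). It ran opposite to Tshz2 (r = -0.85, rho = -0.82, permutation adjusted p = 0.0425) and to the astrocyte connexin gene Gja1 (r = -0.78, rho = -0.70, permutation adjusted p = 0.0319). Bcl11b rose with 5 markers, namely Moxd1 (r = 0.82, rho = 0.73, permutation adjusted p = 0.0394), Dgkb (r = 0.80, rho = 0.66, permutation adjusted p = 0.0469), Lmo3 (r = 0.76, rho = 0.83, permutation adjusted p = 0.0425), Sox5, a regulator of deep layer identity (r = 0.78, rho = 0.79, permutation adjusted p = 0.0469), and Gad2, which GABAergic neurons express (r = 0.78, rho = 0.64, permutation adjusted p = 0.0469, and 0.48 without the 2 libraries farthest from the median of Gad2). Of the 10 GABAergic markers 4 had a positive r with Bcl11b, with a median of -0.10 and a lowest value of -0.74. Tle4 rose with Npr3 (r = 0.71, rho = 0.78, permutation adjusted p = 0.0469) and ran opposite to Fgfr3 (r = -0.73, rho = -0.77, permutation adjusted p = 0.0469). Of the 8 astrocyte markers, however, 3 had a positive r with Tle4, with a median of -0.38. Cux1 ran opposite to the layer 5 marker Qrfpr (r = -0.76, rho = -0.69, permutation adjusted p = 0.0469), while 4 of the 12 layer 5 markers had a positive r with Cux1 (median -0.10). Within batch 1 the positive relations of these 7 genes had r = 0.65 to 0.90 and the negative ones r = -0.89 to -0.65.

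Over all tested genes with a mean of at least 1 CPM, the genes most like each of the 9 were named by Pearson r over 16 libraries, as a description, with 2 genes each and 1 for Bcl11b. For Nr4a2 they were Col23a1 (0.94) and Cfap58 (0.94), and for Bcl11b Neto1 (0.93) is given. For Tle4 they were St8sia3 (0.91) and Far2 (0.90), for Tbr1 Pak7 (0.89) and Uxs1 (0.88), and for Rorb Camk2n1 (0.87) and Gm16536 (0.85). For Foxp2 they were Dclk3 (0.85) and Ccdc113 (0.84), for Fezf2 A930017M01Rik (0.84) and Peli3 (0.84), for Cux1 Msantd3 (0.83) and Prom1 (0.83), and for Cux2 Elac2 (0.82) and Per2 (0.81). None of the 9 was among the 2 most like another. The share of tested genes with r over 0.7 was 5.58% for Bcl11b, 3.72% for Tle4 and 2.00% for Nr4a2, against 0.163% to 0.997% for the other 6.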

How the data were processed

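The authors trimmed the first bases of each read (Trimmomatic 0.39, with FastQC 0.11.9), aligned the read pairs of poly(A) RNA libraries to GRCm38 (HISAT2 2.2.1) and counted them per gene name (featureCounts 2.0.3). Strand was not used, and pairs matching several places or genes were left out, which can undercount genes with close copies. The deposited values are raw read pair counts of 47593 genes in 16 libraries, repeated in 1 table per group with 0 differing cells. Replicates of a group differed beyond counting noise (chi-square per degree of freedom 11.5 to 128 over 24 pairs of libraries). The labels number the samples within each group, and p values measure the spread between them.

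Counts were normalised with TMM factors and tested in R 4.3.3 with the quasi-likelihood test of edgeR 4.0.16 on 16553 genes kept by a minimum count of 10. Terms were sex, batch and diet, or group and batch for each sex and the interaction. P values were adjusted over all tested genes by the Benjamini-Hochberg method, with a threshold of 0.05. CPM is counts per 1000000 with TMM factors. Log2 CPM used a prior count of 2. Correlations used Python 3.11.15 with NumPy 2.4.6, and figures matplotlib 3.10.9. DESeq2 1.42.0 was an alternative test. Tests were also tried on simulated data. Other alternatives were another normalisation, no filter, no batch term, batch 1 alone, a replicate block, the length slope or mitochondrial share as a term, and each library left out. The fits without male vehicle 4 and male rapamycin 4 and of batch 2 alone were chosen after seeing the data.

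Whether replicate numbers pair the samples was not settled. Of 21 same-numbered pairs of libraries, 18 had deviations from their group means correlated over 0.1, and 7 after batch was also removed (r = -0.43 to 0.37). The main tests did not pair the samples, and the replicate block was an alternative.

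Named genes are the 9 layer genes, up to 4 genes of each marker list with the smallest p for diet and for batch, single list genes with an adjusted relation to a layer gene, and the 2 genes most like each. Single list genes with such relations were chosen after their values were seen. Some genes that this rule names are not reported here. The 16 lists hold 166 genes, of which 165 were found and 164 tested. The members, lists and tests were chosen with earlier results of these data known.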

Additional observations from a re-analysis of the deposited data

Results flagged for a closer look

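The 9 layer genes were examined for a library far from the other 3 in each of the 4 groups, by a gap to its nearest neighbour that took over 82.9% of the group's range. Of 36 such sets 5 met this, where about 1.8 would be met if the 4 libraries of a group were alike. They were not alike in batch, since each group holds libraries of both batches. In the male rapamycin group, mouse 2 had the highest Cux1 at 116 CPM (others 94.4 to 96.9) and the lowest Nr4a2 at 48.9 CPM (others 133 to 147). Cux2 was highest in the batch 2 library of both vehicle groups, at 154 CPM in female vehicle 4 (others 92.8 to 102) and at 178 CPM in male vehicle 4 (others 99.1 to 104). In male vehicle 3 Bcl11b was at 95.4 CPM (others 59.0 to 64.8). That library also had the highest Nr4a2 of all 16, at 186 CPM, and the lowest Rorb, at 21 CPM.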

How the results depend on the processing

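For diet in both sexes, 2 layer genes and 2205 genes in all passed. The counts were 1 and 142 without a batch term, 0 and 0 with the length slope, 0 and 0 with the mitochondrial share, 1 and 1040 without male vehicle 4 and male rapamycin 4, and 0 and 3 in batch 2 alone, while 2 layer genes passed with 1240 genes in batch 1 (Tle4 and Cux2) and with 1298 in the replicate block. Leaving out each library gave 1 to 2 layer genes and 719 to 3352 genes. In females (0 and 2 genes), DESeq2 gave 2 and 1503, no filter 2 and 1678, and batch 1 2 and 1290. There 1 gene in all passed without a batch term, with the length slope, and with the mitochondrial share, and leaving out each library gave 0 to 2 layer genes and 1 to 2104 genes. In males (0 and 0) DESeq2 gave 27 genes, no filter 1 layer gene and 526 genes, the replicate block 1 gene, and leaving out each library 0 to 1 genes. For the interaction (0 and 0) no filter gave 1 layer gene and 87 genes. Between batches (1 and 5884) the length slope left 2083 genes, the mitochondrial share 1703, and leaving out each library 4265 to 6211. Between sexes (0 and 5) DESeq2 gave 11 genes, no filter 113, batch 1 8, the replicate block 3, the fit without male vehicle 4 and male rapamycin 4 gave 11, and leaving out each library 4 to 7. For correlated pairs (1), 2 passed without centring and 2 on the CPM scale (with Bcl11b and Tle4), 2 on residuals after sex, diet and batch (with Bcl11b and Nr4a2), 0 in batch 1, 0 in the replicate block and 4 relative to glutamatergic markers (Tle4 with Bcl11b, Fezf2 and Tbr1, and Fezf2 with Tbr1, without Cux1 and Rorb), with 0 to 4 when each library was left out. The replicate block changed no layer gene's call for diet, and no block was fitted for batch. Fewer samples or genes tested apply to some of these settings, and otherwise the cause was not tested. No layer gene difference that passed over all libraries changed sign where it was recomputed. Differences between diets that did not pass did so for Cux1 (lowest -0.19), Cux2 (-0.25) and Rorb (-0.43) in batch 2 alone, for Nr4a2 in batch 1 alone (-0.02), for Cux1 (-0.09) and Rorb (-0.17) with the mitochondrial share, for Cux1 with the length slope (-0.01), without female rapamycin 2 (-0.02) and without male rapamycin 2 (-0.003), and for Rorb without male rapamycin 2 (-0.01).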
